A study of Mus musculus with 15 samples.

Results

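The genes described here make, take up, store and export cholesterol. They are 32 mouse genes out of 45706 in the deposited table, taken as a list of gene names from these pathways. The rule itself used no value, but the list was chosen with earlier results of these data known. The 32 genes comprise 18 enzymes of cholesterol synthesis and 14 genes of sterol sensing, uptake, lysosomal release, transfer, esterification and efflux. All 32 were in the table, and all 32 passed the filter on low counts that left 17650 genes for testing. The measurements were RNA abundances in cultured mouse lymphatic endothelial cells (LECs), which line the lymph node's sinuses and the vessels that drain into it. Cultures received no VEGF-C, 10 ng/mL or 100 ng/mL for 72 h, VEGF-C being the growth factor that drives lymphatic growth through the receptor Flt4. Each group had 5 libraries, lettered A to E.

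All 3 groups shared the same cell source and medium. The cells were Pdpn+ CD31+ CD45- cells of female C57Bl/6 mice, taken from a pool of popliteal, inguinal, cervical, brachial and axillary nodes. They were grown in MEMα medium with 10% fetal bovine serum, so a serum source of lipoproteins was present in every group. The VEGF-C was a purified recombinant murine protein made in HEK-293E cells, a human embryonic kidney line. Abundance is given in CPM, the estimated read count of a gene scaled to a common library size. A change was called where the adjusted p of edgeR's quasi-likelihood test was under 0.05 over all genes tested. Nothing in the labels states that the 5 libraries were separate cultures, so the p-values reflect spread among libraries that may be technical.

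Cholesterol is built from acetyl-CoA through mevalonate, squalene and lanosterol. Cells match this synthesis to their sterol content through the SREBP transcription factors, which leave the endoplasmic reticulum with their escort Scap when sterol is scarce and are held there by the Insig proteins when it is plentiful. Excess sterol is esterified by Soat1 or exported by Abca1 and Abcg1, which are induced by the liver X receptors when oxysterols accumulate.

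Libraries held 27784906 to 38590841 estimated counts, of which the 32 genes took 0.225 to 0.309%. A principal component analysis placed the 100 ng/mL libraries apart from the other 10 on its first component (64.8% of the variance). Within its group, library B of 100 ng/mL stood apart at 38.8 on that component, against 69.8 to 78.5. On the second component library E of the unstimulated group, D of 10 ng/mL and B of 100 ng/mL had the lowest values of their groups. Library C of 100 ng/mL lay at the other end of that component, at 30.8, against -5.52, -4.63 and 13.5 for A, D and E. The lymphatic and endothelial markers Prox1, Flt4, Pecam1 and Cdh5 were present in all 15 libraries, whereas Ccl21a was at 0 in 11 of them. Summed over 12 such markers, the level was 8117 to 8783 CPM in unstimulated libraries and 10359 to 13959 CPM at 100 ng/mL, where library B was lowest. Of the 11 tested, 8 rose and 1 fell at 100 ng/mL, against 21.4% of all 17650 genes that rose and 21.5% that fell. The one that fell was Emcn, an abundant endothelial sialomucin, at 2064 CPM in unstimulated cells and 1213 CPM at 100 ng/mL. A sum over 16 fibroblastic and mural markers was 3316 to 4774 CPM in unstimulated libraries, 2792 to 4540 CPM at 10 ng/mL and 1040 to 1456 CPM at 100 ng/mL, where library B was highest. Of the 15 tested, 13 fell and 0 rose at 100 ng/mL, beside the same 21.5% of all genes that fell, with Lum at 0 in 3 libraries. For 14 leukocyte markers the sums were 56.5 to 157 CPM, 48.5 to 128 CPM and 25.9 to 46.9 CPM, with 10 of 12 tested lower and Cd3e at 0 in 11 libraries. Summed over 7 epithelial markers the level was 83.1 to 135 CPM in unstimulated libraries, 66.6 to 90.2 CPM at 10 ng/mL and 30.7 to 60.2 CPM at 100 ng/mL, and 4 of 6 tested were lower and 1 higher. The 9 mitochondrially encoded genes summed to 8345 to 12122 CPM in unstimulated libraries, 12201 to 15897 CPM at 10 ng/mL and 11699 to 16271 CPM at 100 ng/mL. Of 11 blood endothelial markers, 5 were lower and 4 higher, and their summed ranges overlapped. Apart from the blood endothelial markers, these sums moved with the VEGF-C group, and their part in the results below was not tested. In such bulk libraries, fewer cells of a type and less RNA per cell cannot be told apart.

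At 100 ng/mL the 18 synthesis enzymes of the list were lower than in unstimulated LECs, and both cholesterol exporters were higher. All 18 synthesis enzymes fell, with log2 fold changes from -1.93 for Cyp51 to -0.30 for Dhcr7. The median over the 18 was -0.99, against 0.01 over all 17650 genes. In 17 of the 18 every library at 100 ng/mL lay below every unstimulated library, as it did for 13.7% of all genes tested. Of the 18, 9 were at least 2-fold lower, a size reached by 8.29% of all genes. Among the 14 other genes, 7 fell, 3 rose and 4 were not called, with a median of -0.12. Over all 32 genes, 25 fell and 3 rose. Outside the list, of 11 other enzymes and partners of sterol synthesis, 5 fell and 2 rose. The call was made in 42.9% of all genes tested, and the directions were even in that background, with 21.5% lower and 21.4% higher. A further fit left out the 3 libraries lowest in their groups on the second principal component (unstimulated E, D of 10 ng/mL, B of 100 ng/mL). Library C of 100 ng/mL, the highest on that component, was kept. This left 28 of the 32 genes called, all 18 enzymes among them, and moved the enzyme median to -1.08. In that fit 8228 of the 17618 genes tested were called, and the median over all of them was 0.01.

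**Figure D1:**
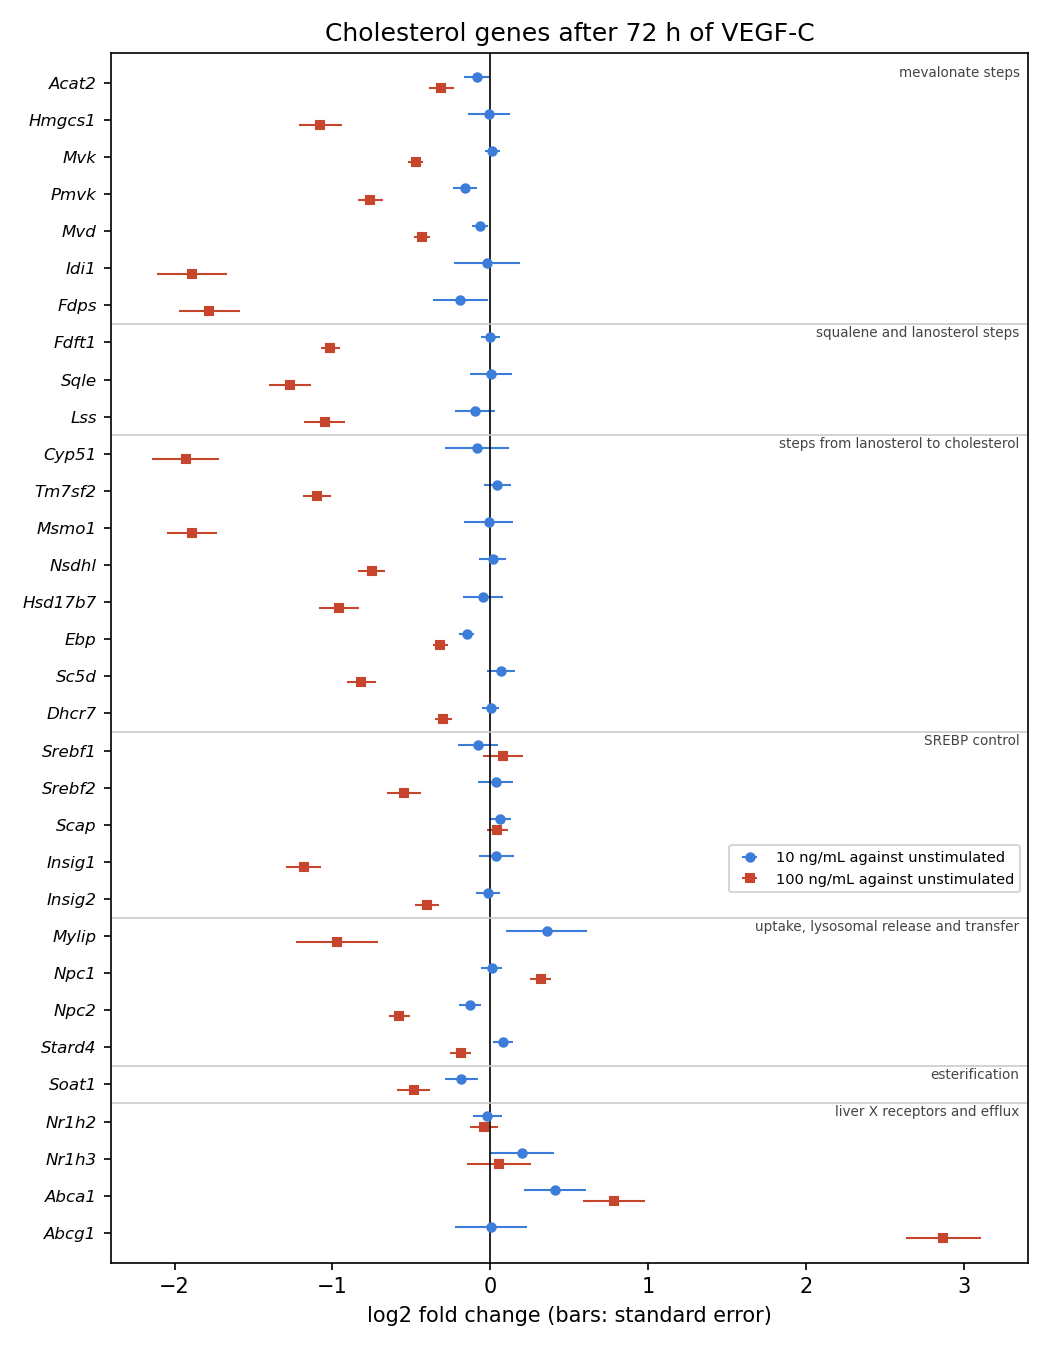
Log2 fold change of each of the 32 genes after 72 h of VEGF-C at 10 ng/mL (circles) and 100 ng/mL (squares) against unstimulated cells, with standard errors as bars and 5 libraries per group. The 18 enzymes in the top 3 blocks lie between -1.93 and -0.30 at 100 ng/mL and near 0 at 10 ng/mL, and Abcg1 lies at 2.87 at the higher dose.

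The mevalonate steps turn acetyl-CoA into the isoprenoid farnesyl diphosphate. All 7 of their enzymes in the list fell at 100 ng/mL, with a median log2 fold change of -0.76. Hmgcs1, the synthase that makes HMG-CoA, had 109.5, 141, 138, 148 and 125 CPM in unstimulated libraries A to E. At 100 ng/mL it had 66.4, 85.8, 49.4, 56.7 and 55.0 CPM. Each of the latter was below the lowest unstimulated library, and the log2 fold change was -1.08 ± 0.14 (SE, edgeR adjusted p = 1.72e-05).

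Idi1, the isomerase that supplies the reactive isoprene unit, fell most among the listed mevalonate enzymes. It lies on GRCm38 at chr13:8885501-8892451 on the plus strand. Its unstimulated libraries held 17.8, 27.2, 24.9, 24.4 and 21.1 CPM. The 100 ng/mL libraries held 5.89, 11.3, 4.55, 5.18 and 4.33 CPM, where library B was highest. The change was -1.89 ± 0.22 on the log2 scale (3.70-fold lower, edgeR adjusted p = 7.9e-06). Fdps, which joins isoprene units into farnesyl diphosphate, was measured at only 2.14, 2.33, 2.05, 2.38 and 2.30 CPM in unstimulated cells. At 100 ng/mL its level was 0.529, 1.102, 0.622, 0.584 and 0.427 CPM, with library B highest again and no overlap between the groups (log2 fold change -1.78 ± 0.19, edgeR adjusted p = 3.94e-06).

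The 3 enzymes that act on mevalonate and its phosphates changed less and with little spread. Mvk, the first kinase, ranged over 22.3 to 23.4 CPM in unstimulated cells and 15.5 to 17.4 CPM at 100 ng/mL (log2 fold change -0.47 ± 0.05). Pmvk, the second kinase, went from 19.6 ± 1.37 to 11.5 ± 1.30 CPM (SD, n = 5), a log2 fold change of -0.76 ± 0.08. Mvd, the decarboxylase after it, went from 21.9 ± 0.939 to 16.2 ± 0.414 CPM (SD, n = 5), a log2 fold change of -0.43 ± 0.05. Their groups did not overlap. Acat2, the thiolase that joins acetyl units at the start of the pathway, was the only one of the 18 enzymes whose groups overlapped. It had 51.9, 49.2, 47.3, 48.6 and 58.9 CPM in unstimulated libraries and 40.9, 49.0, 38.2, 40.3 and 38.1 CPM at 100 ng/mL. Library B of the latter, at 49.0 CPM, lay within the unstimulated range, and the log2 fold change was -0.31 ± 0.08 (edgeR adjusted p = 0.00601).

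A further 3 steps carry farnesyl diphosphate to lanosterol, and all 3 of their enzymes fell about 2-fold. Fdft1, squalene synthase, was at 33.6 ± 1.20 CPM (SD, n = 5) in unstimulated libraries and at 16.7, 18.5, 17.3, 15.7 and 14.9 CPM in libraries A to E at 100 ng/mL. This was the smallest relative error among the larger falls (-1.01 ± 0.06, edgeR adjusted p = 2.31e-08). Sqle, the epoxidase of squalene, was at 86.5, 90.1, 84.6, 92.1 and 85.9 CPM and then at 36.2, 53.9, 27.2, 34.4 and 30.6 CPM (log2 fold change -1.27 ± 0.14). Lss, which closes the ring system of lanosterol, fell from 24.1 ± 1.37 to 11.7 ± 2.99 CPM (SD, n = 5), a log2 fold change of -1.05 ± 0.13. None of the 3 had overlapping groups.

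The list holds 8 enzymes that trim lanosterol to cholesterol. All 8 fell without overlap, with a median log2 fold change of -0.89, and they hold both the largest and the smallest change of the 18. Cyp51, the cytochrome P450 that removes the first methyl group of lanosterol, is encoded at chr5:4081145-4104746 on the minus strand. It had 81.9, 90.6, 86.4, 93.0 and 85.8 CPM in unstimulated cells. At 100 ng/mL it had 23.0, 41.5, 15.3, 19.7 and 15.4 CPM. Library B stood highest there, though still below every unstimulated library, and the group mean was 3.81-fold lower (log2 fold change -1.93 ± 0.21, edgeR adjusted p = 4.53e-06).

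Msmo1, the oxidase that attacks the remaining methyl groups, is encoded at chr8:64718139-64733792 on the minus strand. Its unstimulated levels were 108, 116, 117, 119 and 100.33 CPM. Its levels at 100 ng/mL were 26.8, 47.6, 25.9, 27.9 and 23.1 CPM, a 3.70-fold lower mean in which library B was again the highest (log2 fold change -1.89 ± 0.16, edgeR adjusted p = 3.57e-07). Tm7sf2, a sterol reductase, was scarce and fell from 4.57 ± 0.119 to 2.13 ± 0.229 CPM (SD, n = 5; log2 fold change -1.10 ± 0.09). Nsdhl and Hsd17b7, which complete the removal of the methyl groups, fell by 0.75 ± 0.09 and 0.96 ± 0.13 on the log2 scale. Sc5d, the desaturase, ranged over 43.5 to 52.2 CPM in unstimulated cells and 23.7 to 34.3 CPM at 100 ng/mL (log2 fold change -0.82 ± 0.09).

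Among these 8 enzymes the changes were smallest for Ebp and Dhcr7. Ebp, the sterol isomerase, was at 37.3, 36.1, 34.4, 36.9 and 34.98 CPM in unstimulated libraries and at 27.1, 27.9, 30.1, 30.8 and 28.3 CPM at 100 ng/mL (log2 fold change -0.32 ± 0.05, edgeR adjusted p = 9.84e-05). Dhcr7, the reductase of the last double bond in the ring, was at 30.3, 30.9, 28.2, 28.1 and 26.4 CPM and then at 24.4, 24.8, 22.2, 24.1 and 21.7 CPM (log2 fold change -0.30 ± 0.05, edgeR adjusted p = 0.000502). The groups were apart for both genes, though for Dhcr7 the gap between the groups was smaller than the range within either.

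In every library at 100 ng/mL all 18 enzymes lay below their unstimulated means, though by unequal amounts. In library C their log2 ratios to those means ran from -2.52 to -0.26. Expressed per library as the median log2 ratio of the 18 enzymes to their unstimulated means, the unstimulated libraries lay between -0.04 and 0.04. The 10 ng/mL libraries lay between -0.13, in library D, and 0.02. The 100 ng/mL libraries A, C, D and E were at -0.97, -1.05, -1.01 and -1.17. Library B of that group was at -0.53, less low than the other 4, and for 14 of the 18 enzymes it held the highest level of its group. The same library had the lowest lymphatic and endothelial marker sum (10359 CPM) and the highest fibroblastic and mural marker sum (1456 CPM) of its group, and the part of either in its enzyme levels was not tested.

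**Figure D2:**
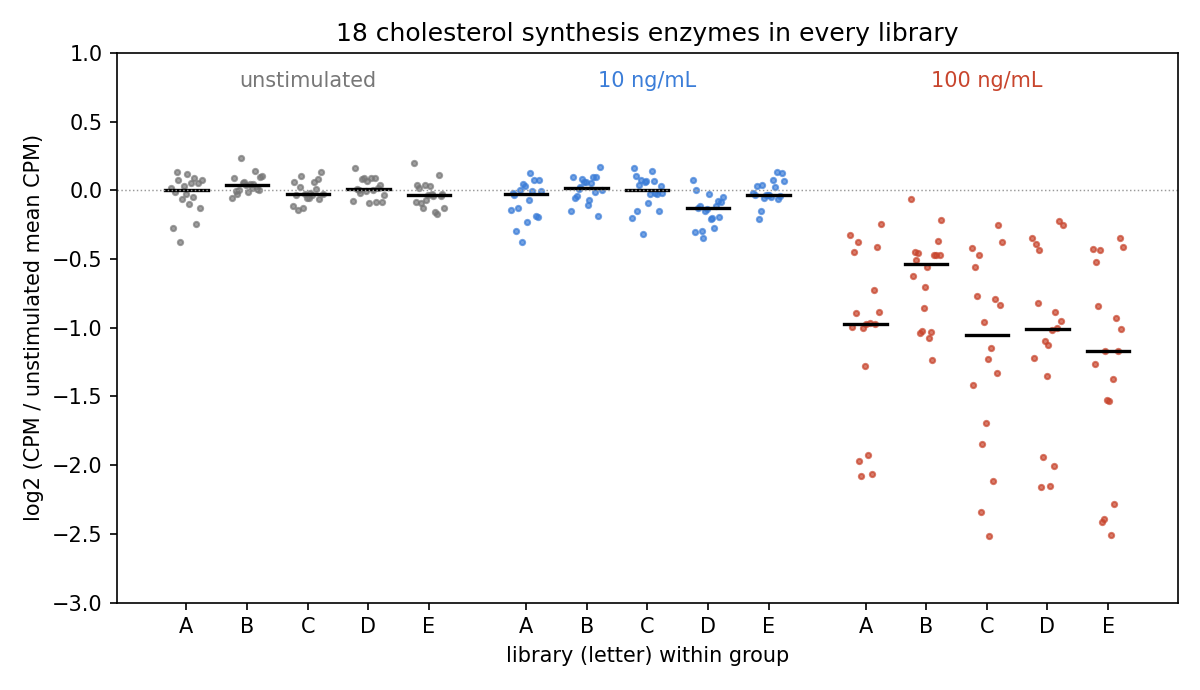
Log2 ratio of each synthesis enzyme to its mean in unstimulated cells (points, 18 per library) with the median of the 18 as a bar, for the 15 libraries. Medians in the 100 ng/mL group run from -1.17 in library E to -0.53 in library B, below all libraries of the other groups.

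Promoter sequences were examined because all 18 enzymes fell at 100 ng/mL. SREBP binds sterol regulatory elements and is known to act with the factors NF-Y and Sp1 at neighbouring sites. RefSeq windows on GRCm38.p6, from 250 bases before to 50 after a gene's start, were at hand for 26 of the 32 genes. The letters CCAAT, the NF-Y box, were found on either strand in 21 of the 26 genes, in 14 of 15 synthesis enzymes and 7 of 11 others, and in 41.1% of all 27025 genes with a window. The letters GGGCGG, a Sp1 box, were found in 23 of the 26, in 14 of 15 enzymes and 9 of 11 others, against 38.2% of all genes. The sterol element core TCACNCCAC was found in Hmgcs1 alone of the 26, and in 1.44% of all genes. These shares of all genes include genes that did not pass the filter on low counts, which all 32 members passed. A match is a description of letters and does not show binding. Only exact letters were searched, so the lack of a match does not show that an element is absent. The stretches below belong to Hmgcs1 and Mvk (mevalonate steps), Nsdhl and Sc5d (lanosterol to cholesterol), Insig1 and the exporter Abca1. They end before the start given by RefSeq and by GENCODE, at chr13:119690101-119690350 (plus strand), chr5:114444019-114444268 (plus), chrX:72918271-72918520 (plus), chr9:42264301-42264550 (minus), chr5:28071162-28071362 (plus) and chr4:53159896-53160145 (minus). They are written 5′ to 3′ along the gene, and capitals mark CCAAT, or ATTGG where it lies on the other strand, and the sterol element core of Hmgcs1.
Hmgcs1: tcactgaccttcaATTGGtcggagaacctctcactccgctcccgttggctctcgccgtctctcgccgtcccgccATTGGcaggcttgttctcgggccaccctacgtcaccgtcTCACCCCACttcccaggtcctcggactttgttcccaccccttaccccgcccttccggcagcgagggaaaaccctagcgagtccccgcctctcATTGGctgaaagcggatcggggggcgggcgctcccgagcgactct
Mvk: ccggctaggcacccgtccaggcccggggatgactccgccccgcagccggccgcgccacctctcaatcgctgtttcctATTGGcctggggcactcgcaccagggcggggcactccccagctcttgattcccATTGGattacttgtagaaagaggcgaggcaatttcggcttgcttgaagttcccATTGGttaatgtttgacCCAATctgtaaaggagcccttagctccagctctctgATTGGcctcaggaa
Nsdhl: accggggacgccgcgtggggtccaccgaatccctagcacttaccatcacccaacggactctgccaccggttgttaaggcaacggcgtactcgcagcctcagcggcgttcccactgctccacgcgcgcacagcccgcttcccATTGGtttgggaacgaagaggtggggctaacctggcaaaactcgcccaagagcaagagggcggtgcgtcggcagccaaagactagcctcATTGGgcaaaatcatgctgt
Sc5d: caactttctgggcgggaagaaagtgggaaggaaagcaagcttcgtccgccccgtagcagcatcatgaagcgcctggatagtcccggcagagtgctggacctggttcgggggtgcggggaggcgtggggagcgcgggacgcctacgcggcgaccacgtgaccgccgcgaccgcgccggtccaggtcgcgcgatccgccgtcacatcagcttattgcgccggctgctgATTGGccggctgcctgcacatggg
Insig1: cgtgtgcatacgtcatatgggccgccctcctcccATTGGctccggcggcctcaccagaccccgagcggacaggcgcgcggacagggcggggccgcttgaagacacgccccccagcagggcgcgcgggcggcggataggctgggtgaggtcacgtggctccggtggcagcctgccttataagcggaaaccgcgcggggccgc
Abca1: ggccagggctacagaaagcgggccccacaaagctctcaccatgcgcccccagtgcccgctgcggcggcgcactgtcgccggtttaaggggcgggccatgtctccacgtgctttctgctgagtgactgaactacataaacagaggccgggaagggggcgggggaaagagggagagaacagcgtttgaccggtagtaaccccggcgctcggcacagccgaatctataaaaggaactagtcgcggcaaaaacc
Within these stretches Mvk held 5 CCAAT boxes, Hmgcs1 3, Nsdhl 2, and Sc5d and Insig1 1 each. Abca1 held 0. In their full windows Acat2, which fell, and Nr1h2, Nr1h3 and Scap, which were not called, also held 0. For Abcg1 and Npc1, the other genes that rose, no window was at hand.

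Several of these enzymes share sequence with other gene models, and the sources used here do not say how reads that match more than 1 gene were counted. Fdps has 3 processed pseudogenes in the deposited table, Gm3571, Gm5873 and Gm8163, that matched its transcripts at 98.9, 96.7 and 96.1% identity over 1062 to 1066 bases. In unstimulated cells they were listed at 3.93, 3.53 and 3.14 CPM, each above the 2.24 CPM of Fdps itself, which held 16.6 to 18.6% of the summed level. Adding the copies gave 12.8 ± 0.669 CPM in unstimulated cells and 4.76 ± 2.12 CPM at 100 ng/mL (SD, n = 5), a log2 fold change of -1.43 ± 0.21 in place of -1.78 ± 0.19. The level of Fdps is therefore uncertain, whereas its direction was the same with and without the copies. Idi1 with its copies Gm13502, Gm35570 and Gm7654 fell by 1.88 ± 0.21 on the log2 scale. Fdft1 with its copy Gm6781, listed at 22.2 CPM in unstimulated cells, fell by 1.03 ± 0.06. The processed pseudogenes Gm7513 and Gm7979 of Fdps and Gm8911 of Idi1 also matched. They have no entry in the deposited table and were left out of the sums. Acat3, a coding gene 97.7% identical to Acat2 over 1477 bases, fell by 1.03 ± 0.13 from 9.78 CPM, more than the 0.31 of Acat2, and the split of reads between the 2 genes is uncertain.

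**Figure D3:**
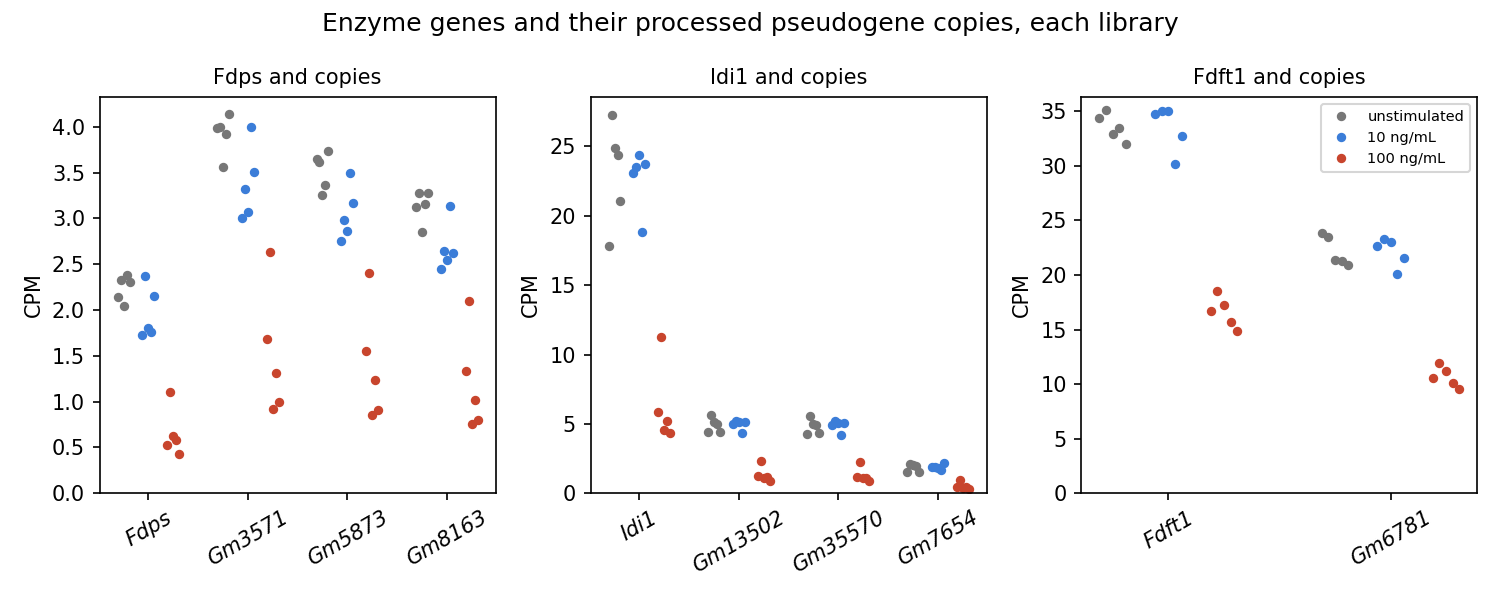
CPM of Fdps, Idi1 and Fdft1 and of those processed pseudogene copies that the deposited table lists, in each of 5 libraries per group. The 3 Fdps copies were each listed above Fdps in unstimulated cells, and every copy was lower in all 5 libraries at 100 ng/mL than in any library of the other groups.

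A few gene models also overlap. The exons of Fdft1 share 774 bases, 18.3% of its exonic length, with Ctsb on the opposite strand, a lysosomal protease that rose from 847 ± 41.6 to 1675 ± 266 CPM (SD, n = 5). Fdft1 was lower at 100 ng/mL, and the part of this neighbour in its counts was not tested. Tm7sf2 shares 532 bases, 12.1% of its exonic length, with Vps51 on the same strand, which went from 18.3 to 21.1 CPM. Fdps shares 1124 bases, 26.7% of its exonic length, with the coding model Gm43738 on the same strand, at 0 CPM in every library. On the opposite strand, Scap shares 13.2% with 5830462I19Rik, Hmgcs1 12.1% with Gm48342 and Idi1 9.22% with Gm48574. Gm48342 and Gm48574 have no entry in the deposited table. Npc1 shares 4.52%, Cyp51 3.76% and Srebf1 1.93% of their exonic lengths with neighbours on the opposite strand. The library kit marks strand, but the sources used here do not say whether the counting used it, so these values are uncertain to that extent.

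Of the 5 listed genes that control SREBP, 3 fell at 100 ng/mL and 2 were not called, with a median log2 fold change of -0.40. Over all genes tested 42.9% were called and 21.5% were lower. Insig1, which retains SREBP in the endoplasmic reticulum and is itself a classic SREBP target, fell most. Encoded at chr5:28071363-28078662 on the plus strand, it had 108, 121, 114, 113 and 98.1 CPM in unstimulated libraries. At 100 ng/mL it had 52.1, 64.2, 41.8, 46.2 and 39.5 CPM, all below the unstimulated range (log2 fold change -1.18 ± 0.11, edgeR adjusted p = 1.19e-06). Insig2, its relative with the same retaining role, was at 62.6, 63.8, 63.2, 75.2 and 59.1 CPM and then at 48.9, 49.7, 53.8, 46.8 and 46.4 CPM, again without overlap (log2 fold change -0.40 ± 0.08, edgeR adjusted p = 0.00062). The log2 ratio of Insig1 to Insig2 went from 0.77 ± 0.13 to -0.03 ± 0.29 (SD, n = 5 each). This ratio of CPM values serves to compare groups, not the levels of the 2 genes, which differ in length. The difference in this ratio was -0.80 (two-sided exact permutation test, p = 0.00794, adjusted p = 0.00992 over 5 related pairs). That p is the smallest that 5 against 5 libraries allow.

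Srebf2, the SREBP that mainly drives cholesterol genes, was the most abundant of the 5 regulators per length. Its unstimulated levels were 261, 269, 276, 255 and 239 CPM and its levels at 100 ng/mL were 193, 218, 129, 195 and 154 CPM. It fell without overlap (log2 fold change -0.55 ± 0.11, edgeR adjusted p = 0.000915), with library C lowest. Srebf1, whose product mainly drives fatty acid synthesis, was at 105, 110.0, 108, 107 and 129.8 CPM and then at 132, 139.5, 81.8, 132 and 105 CPM, where the groups overlapped (log2 fold change 0.08 ± 0.13, edgeR adjusted p = 0.662). The log2 ratio of Srebf1 to Srebf2 was higher by 0.63 at 100 ng/mL (two-sided exact permutation test, p = 0.00794, adjusted p = 0.00992 over 5 pairs). Scap, the escort of both, was at 56.5 ± 3.76 and 58.2 ± 5.31 CPM (SD, n = 5; log2 fold change 0.04 ± 0.07, edgeR adjusted p = 0.641).

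Genes of uptake and lysosomal release moved in both directions. Npc2, the soluble lysosomal protein that picks up free cholesterol, was the most abundant of the 32 genes per length. It had 482, 434, 446, 439.8 and 412 CPM in unstimulated libraries and 276, 264, 344, 296 and 305 CPM at 100 ng/mL, a fall without overlap (log2 fold change -0.58 ± 0.07, edgeR adjusted p = 9.31e-06). Npc1, the membrane protein that takes cholesterol from Npc2 for export, had 46.0, 41.3, 46.7, 43.9 and 39.7 CPM and then 55.3, 46.1, 58.6, 57.4 and 54.0 CPM. It rose (log2 fold change 0.32 ± 0.07, edgeR adjusted p = 0.00115), with 4 of 5 libraries above the unstimulated range and library B, at 46.1 CPM, within it. The log2 ratio of Npc1 to Npc2 was -3.35 ± 0.06 in unstimulated libraries and -2.45 ± 0.10 at 100 ng/mL (SD, n = 5). This difference of 0.90 had p = 0.00794 in a two-sided exact permutation test (adjusted p = 0.00992 over 5 pairs).

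Mylip, a ubiquitin ligase that degrades lipoprotein receptors and a known liver X receptor target, was variable. Its unstimulated levels were 97.4, 91.6, 105, 83.0 and 47.3 CPM and its levels at 100 ng/mL were 35.2, 25.9, 64.8, 39.2 and 51.3 CPM. It fell (log2 fold change -0.97 ± 0.26, edgeR adjusted p = 0.00731), although unstimulated E, at 47.3 CPM, was below libraries C and E of the treated group. Stard4, a carrier of cholesterol between membranes and an SREBP target, went from 146 ± 12.0 to 128 ± 9.40 CPM (SD, n = 5; log2 fold change -0.19 ± 0.06, edgeR adjusted p = 0.0257). Of the 28 calls it was the only one lost when single libraries were left out. Leaving out unstimulated B, C or D, or 100 ng/mL A, D or E, 1 at a time, gave adjusted p-values of 0.0531 to 0.0737 by edgeR. Soat1, which esterifies cholesterol for storage, was at 92.1, 101.1, 99.3, 90.3 and 123 CPM and then at 66.1, 91.2, 71.1, 66.6 and 66.3 CPM. It fell by 0.49 ± 0.10 on the log2 scale (edgeR adjusted p = 0.00165), and its groups overlapped only through library B of 100 ng/mL.

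Abcg1, which moves sterol out to mature lipoprotein particles, rose more than any other of the 32 genes. It is encoded at chr17:31057675-31117988 on the plus strand. The unstimulated libraries held 10.8, 13.2, 12.6, 16.5 and 20.1 CPM, with library E highest. The 100 ng/mL libraries held 137, 90.02, 89.2, 115 and 102 CPM, every one over 4 times the highest unstimulated level. The mean was 7.29-fold higher (log2 fold change 2.87 ± 0.24, edgeR adjusted p = 3.05e-07). It was the only one of the 3 genes that rose whose groups did not overlap, and 13.5% of all genes were apart in that direction.

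Abca1, which passes cholesterol to lipid-poor apolipoproteins, was already abundant in unstimulated cells. Encoded at chr4:53030787-53159895 on the minus strand, it had 470.4, 547, 594, 442 and 325 CPM there and 818, 486, 1145, 717 and 927 CPM at 100 ng/mL. Library B, at 486 CPM, lay inside the unstimulated range, while the other 4 lay above it. The log2 fold change was 0.78 ± 0.20 (edgeR adjusted p = 0.00489). The exporters differed in the size of their rise, since the log2 ratio of Abca1 to Abcg1 went from 5.02 ± 0.65 to 2.90 ± 0.52 (SD, n = 5; difference -2.12, two-sided exact permutation p = 0.00794, adjusted p = 0.00992 over 5 pairs).

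The liver X receptors themselves were not called. Nr1h2, which encodes the widely expressed receptor, was at 66.0 ± 4.67 CPM in unstimulated cells and at 64.1 ± 9.15 CPM at 100 ng/mL (SD, n = 5; log2 fold change -0.04 ± 0.09, edgeR adjusted p = 0.757). Nr1h3, which encodes the receptor prominent in macrophages and liver, was at 19.5 ± 4.50 and 20.3 ± 6.21 CPM (SD, n = 5; log2 fold change 0.05 ± 0.20, edgeR adjusted p = 0.859). The standard error for Nr1h3 is 0.20, the wider of the pair, so a change of that size was not detectable with these libraries. Changes somewhat larger than that could also have been missed. Their ratio differed by -0.08 on the log2 scale (two-sided exact permutation p = 0.794).

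**Figure D4:**
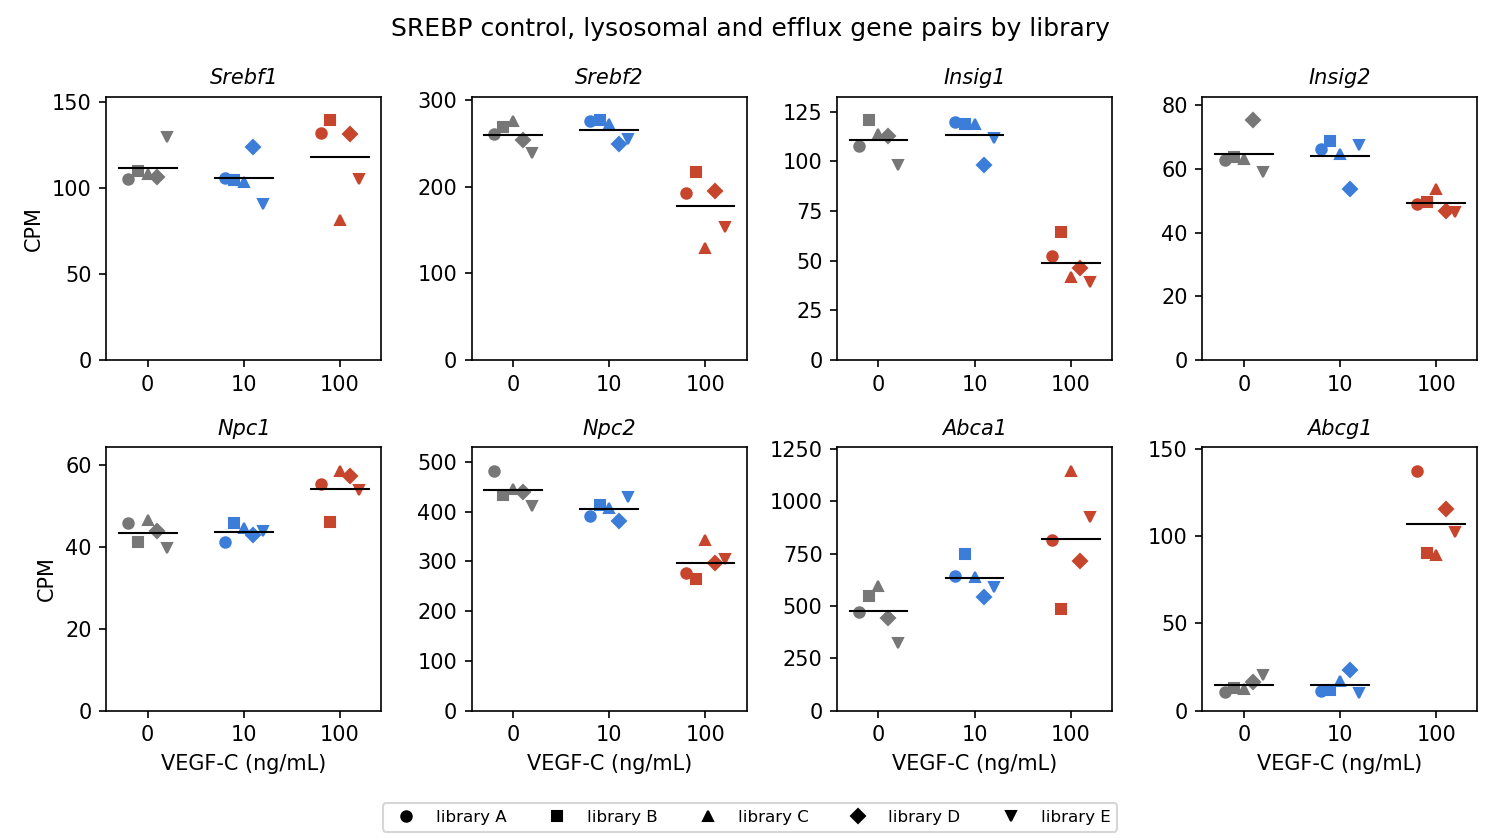
CPM of 4 related gene pairs in every library (symbols give the library letter, bars the group mean) at 0, 10 and 100 ng/mL of VEGF-C, on axes that start at 0. Insig1, Insig2, Srebf2 and Npc2 lie lower in all 5 libraries at 100 ng/mL than in unstimulated cells, and Abcg1 lies higher, at 89.2 to 137 CPM.

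Levels can be compared between genes only per length, for which the authors' RPKM values were used. In unstimulated cells the order was led by Npc2 at 73.1 ± 4.43 RPKM, Srebf2 at 27.95 ± 1.28 RPKM and Abca1 at 24.6 ± 5.14 RPKM (SD, n = 5). Srebf2 and Abca1 did not differ beyond their spread, nor did Abca1 and the next gene, Hmgcs1, at 21.9 ± 2.21 RPKM. The lowest were Lss at 1.25 ± 0.0907, Tm7sf2 at 0.833 ± 0.0256 and Fdps at 0.391 ± 0.0227 RPKM. Of the 32 genes Abcg1 moved furthest in this order, from rank 29 at 1.94 ± 0.504 RPKM to rank 4 at 13.7 ± 2.53 RPKM. Cyp51 moved from rank 8 at 11.1 ± 0.410 RPKM to rank 25 at 2.83 ± 1.34 RPKM, and Msmo1 from rank 14 to rank 27.

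**Figure D5:**
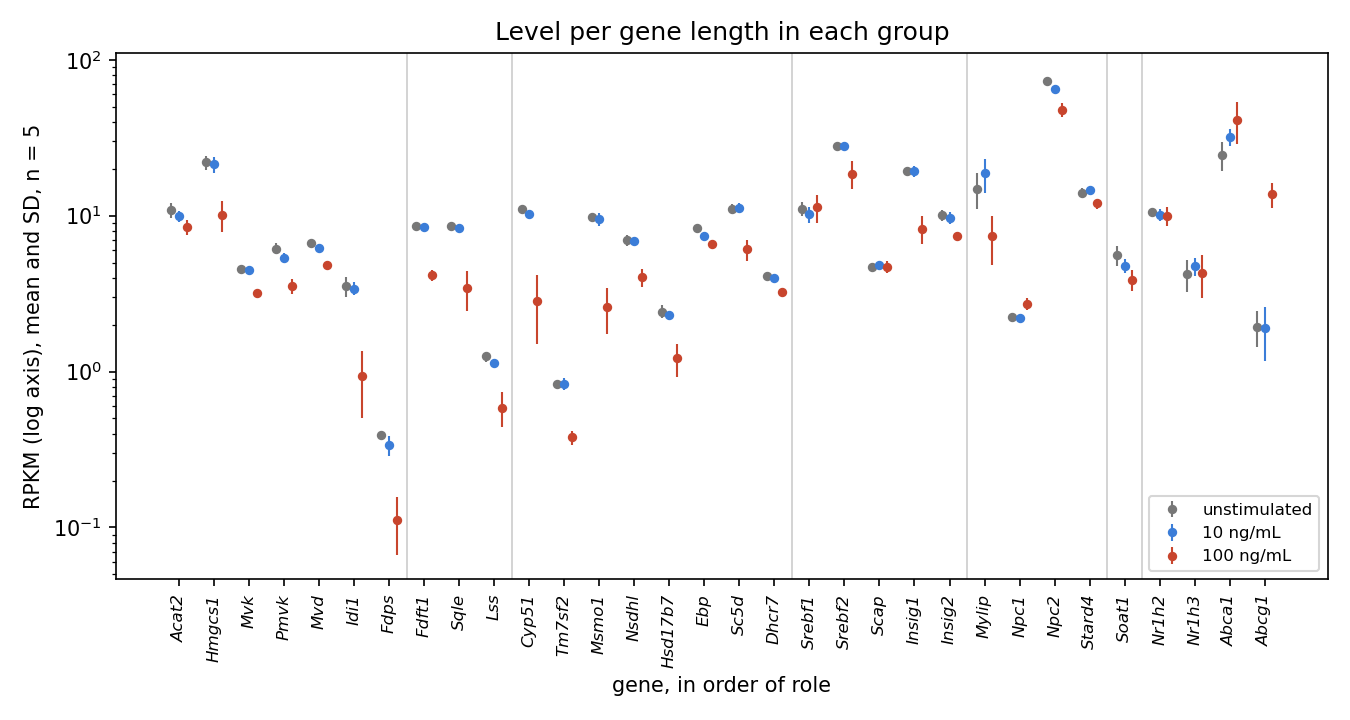
RPKM (log axis) of the 32 genes in order of role, as group mean and SD over 5 libraries, with vertical lines between the roles. Npc2 is highest in each group, at 73.1 RPKM in unstimulated cells, and Abcg1 stands at 13.7 RPKM at 100 ng/mL against 1.94 RPKM in unstimulated cells.

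At 10 ng/mL none of the 32 genes was called against unstimulated cells. By edgeR 0 of all 17650 genes were called, which is 0% of those tested, and 844 genes (4.78%) had an unadjusted p under 0.05. The only gene of the 32 among them was Ebp, at 31.5, 31.6, 32.4, 31.4 and 34.96 CPM in the 10 ng/mL libraries (log2 fold change -0.15 ± 0.05, unadjusted p = 0.00733, adjusted p = 0.969 by edgeR). The DESeq2 Wald test also called 0 of the 32. The 18 enzymes had log2 fold changes between -0.19 and 0.07 with a median of -0.02, beside a median of -0.003 over all genes. Cyp51 was at 83.3, 83.6, 85.9, 75.9 and 84.6 CPM and Hmgcs1 at 131, 142, 148, 107 and 129 CPM, levels that overlapped the unstimulated libraries. Abcg1, at 11.1, 11.9, 16.9, 23.3 and 10.0 CPM, had the same mean of 14.6 CPM in both groups. Abca1 had the largest log2 difference of the 32 at this dose. Its 10 ng/mL libraries held 642, 749, 641, 541 and 593 CPM, and 3 of the 5 were above the highest unstimulated library (log2 fold change 0.41 ± 0.20, unadjusted p = 0.0537, adjusted p = 0.969 by edgeR).

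Between the doses, 25 of the 32 genes were lower and 2 higher at 100 than at 10 ng/mL, with 40.5% of all genes called, 20.6% lower and 19.9% higher. This comparison shares its 100 ng/mL libraries with the one above. All 18 enzymes were lower, with a median log2 fold change of -0.93. Msmo1 had a log2 fold change of -1.88 ± 0.16 and Insig1 of -1.22 ± 0.11. Abcg1 was higher by 2.87 ± 0.24 and Npc1 by 0.31 ± 0.07 on the log2 scale. Mylip, at 118, 132, 110.0, 62.9 and 120.4 CPM in the 10 ng/mL libraries, was lower by 1.33 on that scale (edgeR adjusted p = 0.000931).

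For a few genes the call between the doses was gained or lost when single libraries were left out. Abca1 was not called (log2 fold change 0.37 ± 0.20, edgeR adjusted p = 0.149), but without 100 ng/mL B the change was 0.51 with an adjusted p of 0.0236. Srebf1 likewise was not called (0.16 ± 0.13, edgeR adjusted p = 0.344), and without 100 ng/mL C the change was 0.27 with an adjusted p of 0.0359. The call for Acat2 (edgeR adjusted p = 0.0369) was lost without 10 ng/mL D or E or without 100 ng/mL A, C, D or E, with adjusted p-values up to 0.0905. That for Soat1 (edgeR adjusted p = 0.0325) was lost without 10 ng/mL B, D or E or without 100 ng/mL A, D or E, with adjusted p-values up to 0.0775.

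Genes of neighbouring pathways were called in both directions at 100 ng/mL. Their counts are to be read against all genes tested, of which 42.9% were called, 21.5% lower and 21.4% higher, and a count near those shares is no result about a list. Of 11 other enzymes and partners of sterol synthesis, 5 were lower and 2 higher than in unstimulated cells, with a median log2 fold change of -0.22. Cyb5b and Cyb5r3, which pass electrons to sterol oxidases, rose by 0.54 ± 0.07 and 0.57 ± 0.08, and Por, the reductase that serves Cyp51 and Sqle, had a change of -0.44 ± 0.07. Of 14 genes of the isoprenoid branch, which uses farnesyl diphosphate for purposes other than sterol, 1 was lower and 5 higher, with a median of 0.15. The farnesyltransferase subunits Fnta and Fntb changed by -0.32 ± 0.05 and 0.30 ± 0.07. Of 15 genes that process SREBP or degrade sterol-regulated proteins, 1 was lower and 7 higher, with a median of 0.06. Mbtps2, the protease that makes the second cut in SREBP, rose by 0.41 ± 0.06, and Ube2g2, an enzyme of protein degradation at the endoplasmic reticulum, by 0.54 ± 0.05. Of 15 SREBP targets in fatty acid synthesis, 6 were lower and 3 higher, with a median of -0.27. Acss2, which makes acetyl-CoA from acetate, had the smallest p among them, at a log2 fold change of -0.72 ± 0.10.

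Sterol carriers, other liver X receptor targets, lipoprotein receptors and oxysterol enzymes were also called in both directions at this dose, beside the same 42.9% of all genes called. Of 18 genes of sterol transfer inside the cell, 8 were lower and 5 higher, with a median log2 fold change of -0.05. Gramd1b, which carries cholesterol from the plasma membrane to the endoplasmic reticulum, rose by 1.37 ± 0.16, from 68.9 to 179 CPM. Stard5 and Scp2, a pair of soluble lipid carriers, had changes of -0.70 ± 0.08 and -0.58 ± 0.07. Of 14 further liver X receptor targets and transporters, 4 were lower and 3 higher, with a median of -0.08. Abcg4, a close relative of Abcg1, rose by 2.73 ± 0.23 from a low level, 0.382 to 2.55 CPM. Arl4c, a small GTPase induced by liver X receptors in other cells, had a change of -1.53 ± 0.19. Of 11 lipoprotein receptor and lipase genes, 4 were lower and 3 higher, with a median of -0.26. Scarb1, the receptor for high-density lipoprotein, rose by 0.35 ± 0.05, and Lrp1, a large endocytic receptor, had a change of -2.04 ± 0.51. Of 8 oxysterol and bile acid enzymes, 2 were lower and 3 higher, with a median of -0.09, and Hsd3b7 rose by 0.94 ± 0.15. In all 8 lists, 0 genes were called at 10 ng/mL against unstimulated cells.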

How the data were processed

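The 15 libraries were made with a strand-marking mRNA kit after poly-A selection, per the labels. The authors deposited 1 table that lists, for each of 45706 genes and each library, an estimated count and an RPKM value, per the file headers. Of the deposited estimated counts, 64.3% were not whole numbers. The deposited RPKM values scale the count to the length of the gene and to a library total, which exceeded the summed counts by a factor of 1.86 to 1.92, and the sources used here do not say what that total holds. A second deposited table, limited to more abundant genes, was not used. FastQC, Bowtie2, limma, GRCm38 and mm10 are named in the submitters' processing notes. The read counter, its strand setting, its handling of reads with several matches and its annotation were not given in the sources used here.

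Estimated counts were rounded, filtered with filterByExpr and scaled by TMM, and the quasi-likelihood model of edgeR 4.0.16 (R 4.3.3) was fitted on the 15 libraries with the 3 groups and no covariate, with Benjamini-Hochberg adjustment over 17650 genes. Values of the 5 related pairs were compared by exact permutation of log2 CPM ratios with a prior count of 2. Copies were found with blastn 2.17.0, at 90% identity over at least 400 bases, in GENCODE M21 transcripts. Gene coordinates are those of GENCODE M21 and promoter sequences are RefSeq's, both on GRCm38. The model was also run on counts simulated with independent noise for each gene and far fewer changed genes than here. That run did not cover deviations that many genes of a library share. Replicates differed by more than counting error (smallest chi-square per degree of freedom 8.64). Alternatives were other scalings, filters, tests (DESeq2 1.42.0, limma 3.58.1, sva 3.50.0), units and thresholds and leaving out libraries. Summing members with pseudogene copies was added after seeing the data. All 32 members are named, and from each other list up to 3 called genes with the smallest p for 100 ng/mL against unstimulated could be named. The members and lists were chosen with earlier results of these data known. Genes related to those named may not be reported here.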

Additional observations from a re-analysis of the deposited data

Results flagged for a closer look

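With 96 groups of 5 libraries checked (32 genes in 3 groups), 15 had 1 library far from the other 4 by Dixon's test at the 95% level, where chance gives about 1 in 20. Of the 15, 8 were library B of 100 ng/mL. It held the highest level of its group for Acat2 (49.0 CPM, others 38.1 to 40.9), Pmvk (13.8 CPM, others 10.53 to 11.5), Idi1 (11.3 CPM, others 4.33 to 5.89) and Fdps (1.102 CPM, others 0.427 to 0.622). It was also highest for Msmo1 (47.6 CPM, others 23.1 to 27.9), Sc5d (34.3 CPM, others 23.7 to 26.7) and Soat1 (91.2 CPM, others 66.1 to 71.1), and lowest for Scap (48.9 CPM, others 59.5 to 62.2).

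A further 5 were library D of 10 ng/mL, which was the lowest of its group each time. Its levels were 18.8 CPM for Idi1 (others 23.1 to 24.4), 75.9 CPM for Cyp51 (others 83.3 to 85.9), 3.98 CPM for Tm7sf2 (others 4.75 to 5.04), 92.6 CPM for Msmo1 (others 112 to 119.8) and 53.6 CPM for Insig2 (others 64.7 to 68.7). Ebp was highest in 10 ng/mL E (34.96 CPM, others 31.4 to 32.4). Srebf1 was highest in unstimulated E (129.8 CPM, others 105 to 110.0).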

How the results depend on the processing

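Each comparison was recomputed under 28 alternatives, and no direction of a called gene reversed. For 100 ng/mL against unstimulated, 27 of the 28 called genes kept their call under all of them, the exception being Stard4, and members called ranged from 27 to 28 while genes called ranged from 5436 to 10235. Between the doses 24 to 28 members and 4848 to 9960 genes were called, and 24 of 27 called members kept their call, Acat2, Ebp and Soat1 being the exceptions. Ebp lost its call only at a threshold of 0.01. Abca1 was called between the doses with surrogate variables (0.38, adjusted p = 0.00164) and without the 3 libraries that stood apart (0.46, adjusted p = 0.0168). For 10 ng/mL against unstimulated 0 members were called throughout, and genes called were 8 by the DESeq2 Wald test, 28 with surrogate variables and 0 to 1 when leaving out 1 library at a time.

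The letters A to E did not pair the libraries. Correlations of deviations between libraries with the same letter ran from -0.342 to 0.133, and 0 of 15 libraries correlated best with its own letter. With the letter as a replicate block, 7069 genes and 28 members were called for 100 ng/mL against unstimulated, 0 and 0 for 10 ng/mL and 6582 and 26 between the doses. In the replicate block, differences within letters gave -0.80 for Insig1 to Insig2, 0.63 for Srebf1 to Srebf2, 0.90 for Npc1 to Npc2 and -2.12 for Abca1 to Abcg1, all with an adjusted p of 0.0781 in an exact sign-flip test that cannot pass 0.05 with 5 letters. The precision of all values is limited by 5 libraries a group.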
